A study of Mus musculus with 4 samples.

Results

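The Ly6 family was described here by 6 mouse genes, Ly6a, Ly6c1, Ly6c2, Ly6e, Ly6i and Ly6k, chosen by symbol among the 27998 genes listed in single-cell libraries labelled as tumor-infiltrating immune cells; all 6 had at least 1 UMI (unique molecular identifier, 1 counted transcript molecule). The choice was made with earlier results of these data known, among them that Ly6k was lower in all treated CD8 cells than in the IgG library, so that pattern is given as a description without a test. There were 4 libraries, 1 each for the groups Ac, C, aC+C and IgG; the labels do not spell out what Ac, C and aC+C stand for, and give an age of 6-8 weeks under the genotype field. The sample titles name tumor-infiltrated immune cells, whereas the fields on cell type and protocol tell of goblet cells sorted from the gut of RedMUC298trTg mice; the 5 goblet cell markers looked at (Muc2, Tff3, Agr2, Fcgbp and Spdef) together held few UMIs, at most 47 for any of them over all barcodes kept.

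Ly6 proteins are small cell surface proteins with a compact fold held by disulfide bonds, and most are attached to the membrane by a glycosylphosphatidylinositol (GPI) anchor. In mice they are widely used to tell blood cell types apart: antibodies to Ly6C mark inflammatory monocytes and subsets of T cells, and Ly6A, also called Sca-1, marks stem cells and activated lymphocytes. Transcription of several of the genes is known to respond to interferons.

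Barcodes with at least 1000 UMIs, of which at most 10% mitochondrial, numbered 4028 in Ac, 4210 in C, 4081 in aC+C and 3436 in IgG, with median depths between 10492 and 11594 UMIs. Marker gates that used no Ly6 gene were set on these barcodes, and a gate is called by its markers (CD8 T-like and so on). CD8 T-like cells numbered 1168 in Ac, 679 in C, 989 in aC+C and 1095 in IgG. Between 22.2% and 36.0% of each library's barcodes met no gate. Genes leading the gates were, for example, Cd8a and Cd8b1 in the CD8 T-like cells, Foxp3 and Tnfrsf4 in the CD4 T-like cells, Gzma and Ncr1 in the NK-like cells, and C1qa and Apoe in the macrophage-like cells. The monocyte-like cells were led by Chil3, S100a8 and S100a9, and the neutrophil list, to which S100a8 and S100a9 belong, summed to 257 UMIs per 1000000 UMIs (CPM) in Ac, 1319 in C, 1766 in aC+C and 334 in IgG there. Library pairs shared between 2 and 7 barcodes. Levels below are CPM of a gene among all UMIs of the gate in a library. The exact 95% intervals given take in counting error alone. With 1 library per group no difference between treatments could be tested, and fewer expressing cells and less RNA per cell were told apart only where values per cell are given.

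All 6 genes lie on chromosome 15 of the mouse build mm10 within 315.1 kb: Ly6k at chr15:74796874-74799986 on the minus strand, Ly6e at chr15:74955051-74959905 on the plus strand, then Ly6i at chr15:74979534-74983430, Ly6a at chr15:74994877-74998031, Ly6c1 at chr15:75044018-75048830 and Ly6c2 at chr15:75108158-75111970, all 4 on the minus strand. Each is annotated as protein coding, and the antisense gene Gm17189 overlaps Ly6k; it had 0 UMIs in the CD8 T-like cells of every library. Ly6c1 and Ly6c2 are near copies. Over the last 400 bases of their transcripts, where a 3′ assay reads, they were 98.2% identical over 393 aligned bases, and 35 of 311 windows of 90 bases in Ly6c1 occurred unchanged in Ly6c2. No such window of the other 4 genes occurred in another gene. Counts of Ly6c1 and Ly6c2 are therefore uncertain where the counting could have split or dropped shared reads.

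Despite that likeness Ly6c1 and Ly6c2 were measured in different gates, so the 250 bases before their starts are shown, from RefSeq's table on build GRCm38.p6, which holds these windows for 2 of the 6 genes. The Ly6c1 window is chr15:75048838-75049087 and the Ly6c2 window is chr15:75111972-75112221, both written along the minus strand, with the longest run of bases that the windows share in capitals.
Ly6c1: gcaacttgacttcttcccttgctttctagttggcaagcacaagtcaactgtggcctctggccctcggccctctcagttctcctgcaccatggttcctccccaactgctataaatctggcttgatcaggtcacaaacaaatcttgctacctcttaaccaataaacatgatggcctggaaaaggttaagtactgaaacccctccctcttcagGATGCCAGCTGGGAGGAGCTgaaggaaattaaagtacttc
Ly6c2: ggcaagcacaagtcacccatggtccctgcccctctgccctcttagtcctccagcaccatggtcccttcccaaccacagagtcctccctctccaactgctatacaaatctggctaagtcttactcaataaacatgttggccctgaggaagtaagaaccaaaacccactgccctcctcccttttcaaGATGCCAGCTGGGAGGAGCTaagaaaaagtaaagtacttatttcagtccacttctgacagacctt
The shared run had 20 bases and began 40 bases before the start in Ly6c1 and 65 bases before it in Ly6c2. Aligned over 191 bases the windows were 86.4% identical, with 8 gaps. GAS, an interferon response motif (TTCNNNGAA), was searched on both strands and is present in 7.02% of the 32851 windows of the table. It was not found in the Ly6c1 and Ly6c2 windows. No result is given for other interferon response motifs.

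Ly6e and Ly6a were the most abundant members, and they were read in nearly all gates. Ly6e, which in mice is a receptor for syncytin-A in the placenta and restricts entry of coronaviruses, varied little between libraries. Its level in the monocyte-like cells was 1937 CPM in Ac, 1910 in C, 2043 in aC+C and 2002 in IgG. Its mean over libraries was 1973 ± 60.7 CPM in monocyte-like, 1713 ± 185 in macrophage-like, 1711 ± 98.0 in CD4 T-like, 1093 ± 126 in tumor-like, 898 ± 21.9 in NK-like and 618 ± 54.7 in CD8 T-like cells (SD, n = 4 libraries each). B-like, fibroblast-like and dendritic-like cells averaged 2118 ± 429, 1457 ± 151 and 964 ± 120 CPM. CD8 T-like cells were thus lowest for Ly6e. The levels of CD4 T-like and macrophage-like cells lay within each other's spread.

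Ly6a was highest in CD4 T-like cells, at 2321 CPM in Ac, 1864 in C, 2473 in aC+C and 1689 in IgG. Macrophage-like cells followed with 1014, 1149, 1602 and 1427 CPM in Ac, C, aC+C and IgG. CD8 T-like cells had 524, 405, 685 and 476 CPM, and NK-like cells had the lowest mean with 253, 256, 412 and 248 CPM, in the same library order; in aC+C, dendritic-like and B-like cells were lower, with 339.9 and 381 CPM. The ranges of monocyte-like, fibroblast-like, CD8 T-like and tumor-like cells overlapped in part. After thinning each cell to 1000 UMIs, the share of cells with a Ly6a UMI was 74.5% to 84.5% in CD4 T-like cells over the 4 libraries, 32.3% to 44.6% in CD8 T-like cells and 14.4% to 17.4% in NK-like cells; without thinning the shares were 96.3% to 97.0%, 81.2% to 87.4% and 50.4% to 56.0%. Background barcodes of 1 to 50 UMIs held Ly6a at 625 to 898 CPM, so a low share in any gate can include free RNA.

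**Figure D1:**
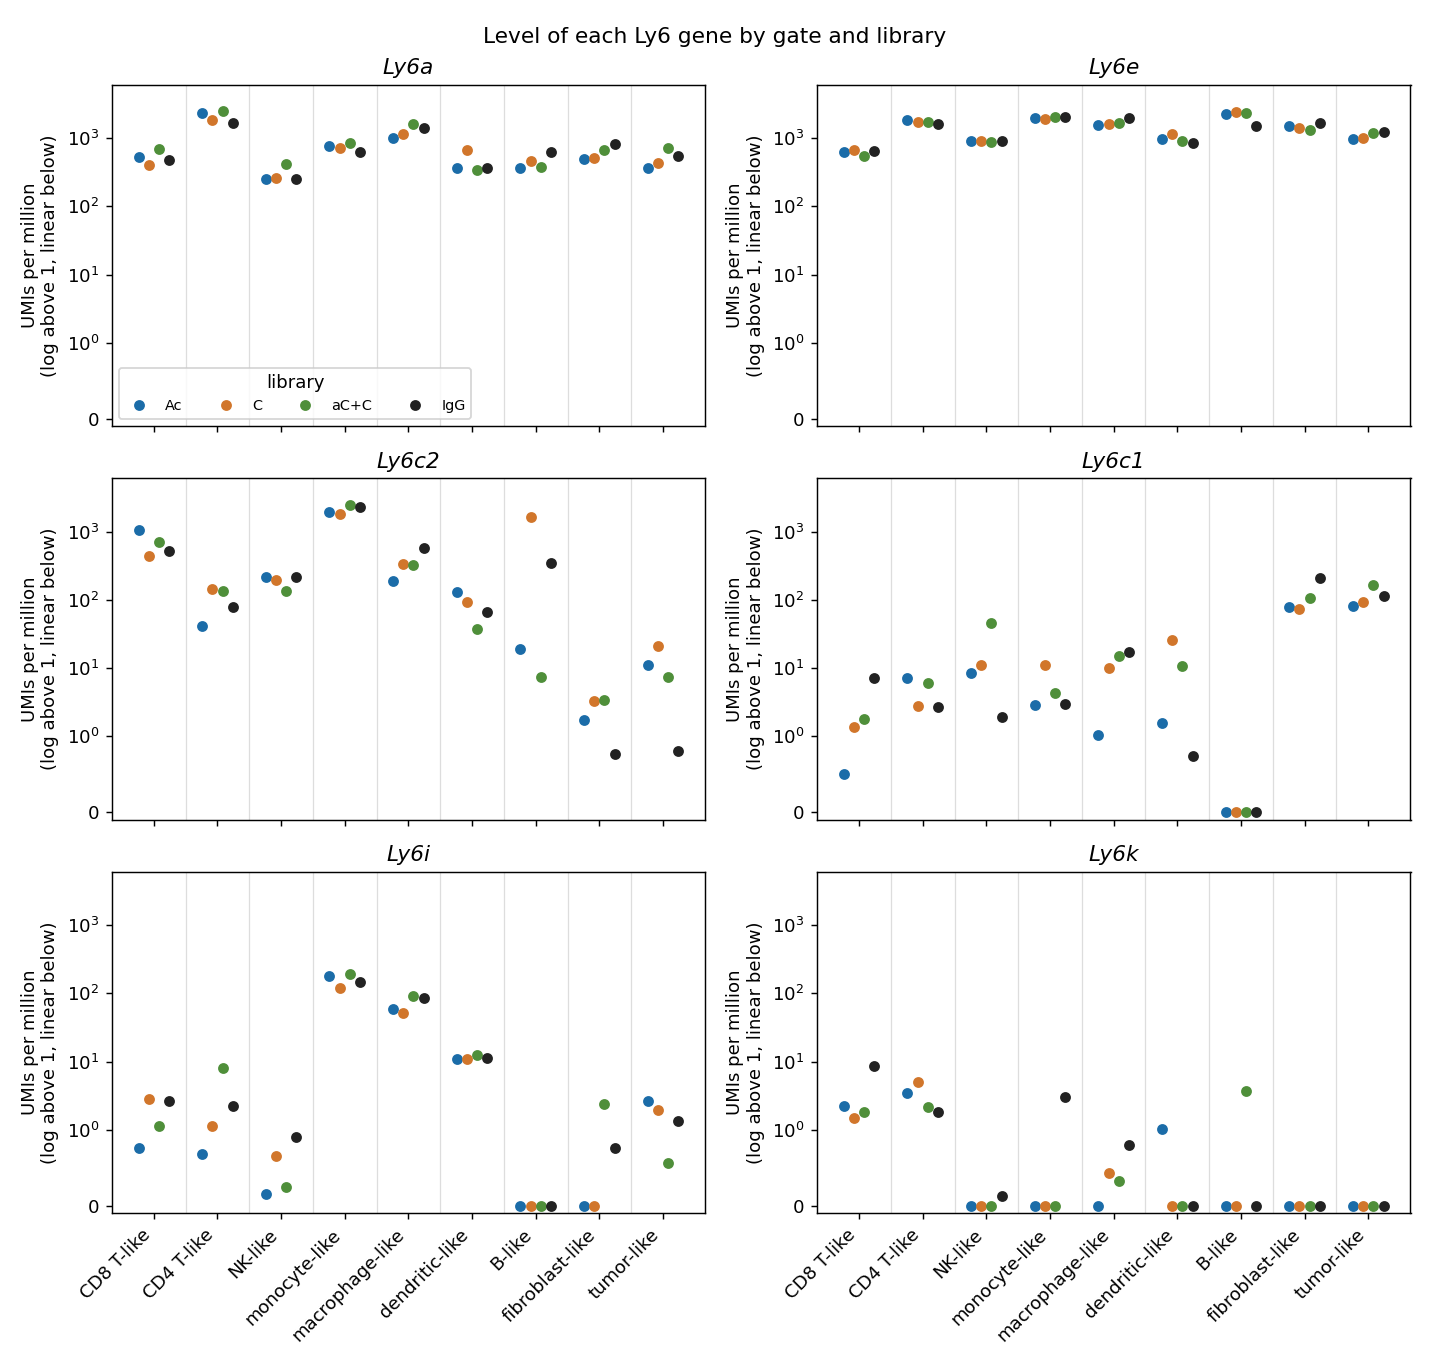
Level of each Ly6 gene in CPM (logarithmic above 1, linear below) in 9 gates, 1 point per library (Ac, C, aC+C and IgG from left to right). Ly6e spans the gates within a narrow band, Ly6c2 peaks in monocyte-like cells, Ly6c1 in fibroblast-like and tumor-like cells, Ly6i in monocyte-like and macrophage-like cells, and Ly6k is at most 8.73 CPM in any gate.

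Ly6c2, which with Ly6c1 encodes the Ly6C antigen, was read mainly in monocytes and CD8 T cells: CD8 T-like cells held 39.3% of its 108201 UMIs and monocyte-like cells 23.3%. Its monocyte-like level was 1938 CPM in Ac, 1795 in C, 2455 in aC+C and 2279 in IgG. In CD8 T-like cells it was 1054, 443, 701 and 524 CPM in Ac, C, aC+C and IgG, and in CD4 T-like cells 41.1, 146, 134 and 77.9 CPM. The CD8 T-like and CD4 T-like ranges did not overlap, as was so for 38.4% of 10745 genes. Between 67.9% and 72.4% of CD8 T-like cells of a library had a UMI, and the 10% of cells with the most UMIs held 39.9% of the Ly6c2 UMIs in Ac, 41.9% in C, 40.5% in aC+C and 43.8% in IgG. Among fibroblast-like cells at most 3.36 CPM was read and among tumor-like cells at most 20.8 CPM, against 360 to 496 CPM in background barcodes. Barcodes that met no gate held 23.1% of the Ly6c2 UMIs, 27.7% of those of Ly6c1, 32.0% of Ly6i and 33.0% of Ly6k.

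Ly6c1 was read mainly in non-immune gates. Tumor-like cells held 52.2% of its 8815 UMIs, with 82.1 CPM in Ac, 94.3 in C, 162 in aC+C and 114 in IgG; fibroblast-like cells had 79.6, 73.8, 106 and 210 CPM in the same order. Its CD8 T-like level was at most 7.13 CPM, and B-like cells had 0 UMIs in every library. Over libraries, 82.2% to 92.8% of tumor-like cells and 52.4% to 60.0% of fibroblast-like cells had a Ly6c1 UMI, at median depths of 62823 to 74991 and 30324 to 34776 UMIs. Thinned to 1000 UMIs per cell the shares were 9.26% to 12.8% and 2.04% to 19.1%, which overlap.

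Ly6i, a close relative of Ly6c in the same cluster, was read in myeloid gates: monocyte-like cells held 31.4% and macrophage-like cells 32.2% of its 6104 UMIs. Its monocyte-like level was 181 CPM in Ac, 121 in C, 189 in aC+C and 144 in IgG, and its macrophage-like level 59.8, 51.9, 92.6 and 86.8 CPM. The ranges of these gates did not overlap, as was so for 34.5% of 10018 genes. Dendritic-like cells had 10.8 to 12.6 CPM, and each T-like and NK-like value was at most 8.11 CPM. Ly6i UMIs were concentrated: 59.1% to 67.9% of monocyte-like cells of a library had none, and the 10% of cells with the most held 64.6% to 71.4% of them.

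Ly6k, best known from mouse testis, where it is needed for sperm function, was the rarest member with 442 UMIs over all barcodes kept. CD8 T-like cells held 57.2% of them, CD4 T-like cells 6.11% and NK-like cells 0.226%, which is 1 UMI. No Ly6k UMI was read in fibroblast-like or tumor-like cells of any library. In tumor-like cells a count of 0 allows up to 0.358 CPM in Ac, 0.458 in C, 0.170 in aC+C and 0.805 in IgG (3 UMIs of the gate's total).

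Between gates of the same 4 libraries, differences were tested with edgeR's quasi-likelihood test on summed counts, with library as a block and Benjamini-Hochberg adjustment over all genes tested; where nothing says that libraries came from separate animals, these p-values measure the spread between libraries. Monocyte-like over macrophage-like cells, 4 of the 5 members tested passed at adjusted p under 0.05, where 35.8% of 10018 genes did. Ly6c2 was higher in monocyte-like cells, averaging 2117 CPM there and 355 CPM in macrophage-like cells, by 2.78 ± 0.20 on the log2 scale (SE, adjusted p = 1.51e-05 by edgeR), in 4 of 4 libraries. Ly6i was higher by 1.27 ± 0.13 (adjusted p = 8.80e-05 by edgeR), also in 4 of 4 libraries. Ly6a was lower in monocyte-like cells, with a log2 change of -0.69 ± 0.12 (adjusted p = 0.00192 by edgeR). Ly6e was higher by 0.31 ± 0.09 (adjusted p = 0.0189 by edgeR, and 0.0790 without Ac). Over libraries, 82.0% to 89.8% of monocyte-like cells and 31.2% to 50.5% of macrophage-like cells had a Ly6c2 UMI.

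NK-like over CD8 T-like cells, Ly6a, Ly6c2 and Ly6e passed and Ly6c1 did not, where 33.1% of 11291 genes did. Ly6c2 averaged 191 CPM in NK-like cells and 681 CPM in CD8 T-like cells, a log2 change of -1.68 ± 0.26 (adjusted p = 0.00577 by edgeR). Ly6a was also lower in NK-like cells (log2 change -0.75 ± 0.08, adjusted p = 0.00184 by edgeR), although its ranges over libraries overlapped. Ly6e was higher in NK-like cells by 0.64 ± 0.05 (adjusted p = 0.000799 by edgeR), with no overlap, as was so for 36.8% of genes. No test is given for Ly6k, which was chosen on its CD8 T-like values; summed over libraries it had 1 UMI in NK-like and 253 UMIs in CD8 T-like cells, a ratio of 0.00936 with an interval of 0.000236 to 0.0526. NK-like cells were of similar depth to CD8 T-like cells, with medians of 9929 to 12853 and 10844 to 13652 UMIs. Ly6c1 did not pass (log2 change 2.67 ± 1.12, adjusted p = 0.117 by edgeR), and did with DESeq2 (2.99, adjusted p = 0.0241). It also passed without IgG, in which 1 CD8 T-like cell held 113 of 142 Ly6c1 UMIs (adjusted p = 0.00443 by edgeR). The NK-like Ly6c1 UMIs came from 8 cells in Ac, 8 in C, 16 in aC+C and 3 in IgG. In these libraries 1 cell held 55.4%, 39.3%, 22.1% and 80% of them. These passes thus rest on few cells, and no difference between the gates is read from them.

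CD8 T-like over CD4 T-like cells, Ly6a, Ly6c2 and Ly6e passed and Ly6c1 and Ly6i did not, where 43% of 10745 genes did. Without IgG, Ly6c1 passed by edgeR with a log2 change of -2.12. Ly6c2 was higher in CD8 T-like cells by 2.88 ± 0.40 on the log2 scale (adjusted p = 0.000460 by edgeR). Ly6a and Ly6e were lower in CD8 T-like cells in 4 of 4 libraries, with log2 changes of -1.92 ± 0.08 (adjusted p = 6.86e-07) and -1.38 ± 0.06 (adjusted p = 8.17e-07), both by edgeR. The Ly6k level averaged 3.56 CPM in CD8 T-like and 3.11 CPM in CD4 T-like cells and is given without a test. Ly6k was higher in CD8 T-like than in CD4 T-like cells in 1 of 4 libraries, IgG.

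Fibroblast-like over tumor-like cells, Ly6e passed and Ly6a and Ly6c1 did not, where 60.5% of 10083 genes did. Under other settings Ly6a passed by edgeR without aC+C (log2 change 0.35) and with marker minimums 2 times higher (0.82). Ly6c1 passed without IgG (-0.43). Ly6e averaged 1457 CPM in fibroblast-like and 1093 CPM in tumor-like cells, higher by 0.35 ± 0.07 on the log2 scale (adjusted p = 0.00185 by edgeR). Ly6c2 averaged 2.29 and 10.1 CPM, both below the background barcodes, on 19 UMIs in fibroblast-like and 364 in tumor-like cells; it reached the filter on low counts through the tumor-like gate alone, so no test of it is given. Ly6c1 averaged 118 and 113 CPM and did not pass (log2 change -0.11 ± 0.20, adjusted p = 0.650 by edgeR).

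**Figure D2:**
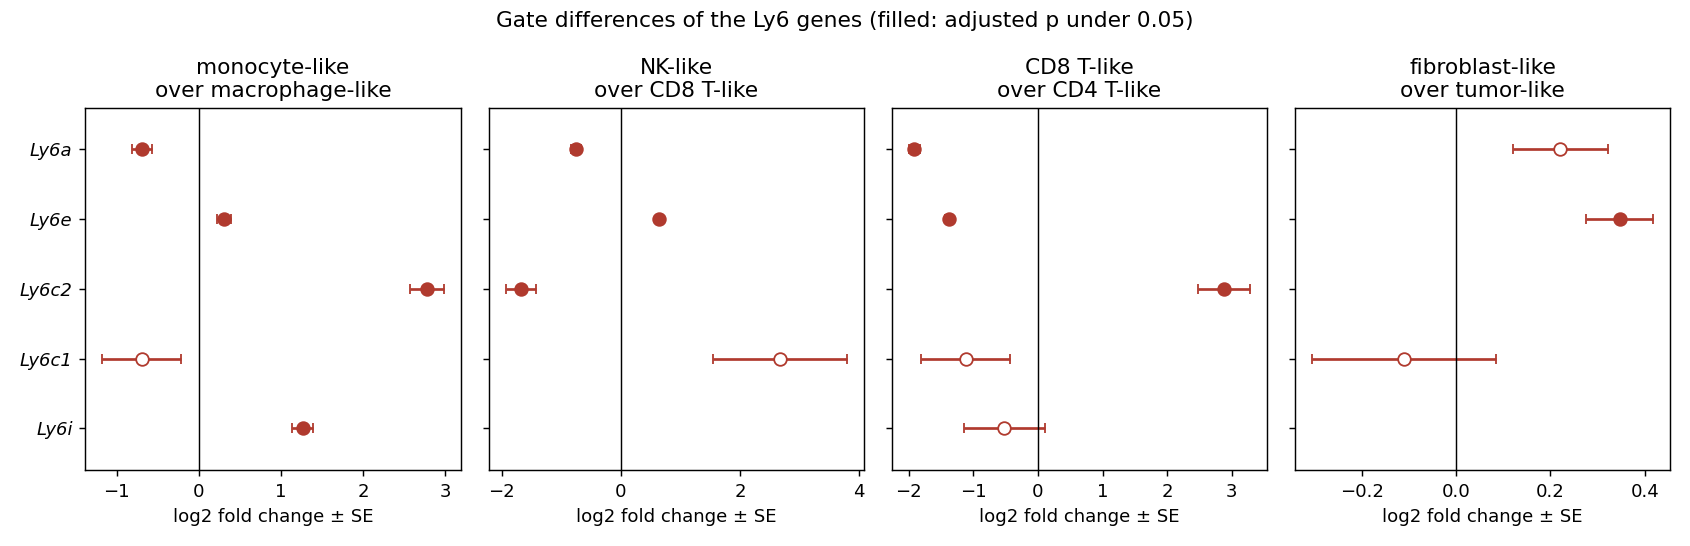
Log2 fold change with its standard error for Ly6a, Ly6c1, Ly6c2, Ly6e and Ly6i where tested in 4 differences between gates, each from 4 libraries by edgeR; filled points have an adjusted p under 0.05. Ly6c2 lies far to the right in monocyte-like over macrophage-like and in CD8 T-like over CD4 T-like cells. Ly6k, and Ly6c2 in fibroblast-like over tumor-like cells, are not drawn.

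For the treatments, each member was set against IgG within 7 gates that had at least 50 cells in every library. A ratio was read where both libraries together held at least 100 UMIs, and was counted when it was at least 1.5-fold higher or lower. Of 25 ratios read in Ac, 6 were past that fold, where 5.12% of ratios of all genes were. The C library had 8 of 27, where 4.81% were, and aC+C had 9 of 28, where 9.81% were. Each count holds the CD8 T-like Ly6k ratio, which the choice of the gene fixed, and ratios that reached 100 UMIs only through the higher library, such as Ly6c1 in CD8 T-like cells (8 UMIs in Ac and 142 in IgG), so nothing is read from the counts against these shares. By gate, the share of all genes past the fold in Ac was 7.44% in CD8 T-like, 6.08% in CD4 T-like, 3.34% in NK-like, 4.23% in monocyte-like, 4.85% in macrophage-like, 7.43% in dendritic-like and 3.07% in tumor-like cells. In the same order of gates it was 3.56%, 5.47%, 3.07%, 10.1%, 4.92%, 5.84% and 3.56% in C. The aC+C library had 11.6%, 8.2%, 17.4%, 7.56%, 6.55%, 10.4% and 6.33%, most in NK-like cells. These libraries share the IgG library as reference, and the counts are descriptions of 4 libraries. No Ly6e ratio was past the fold in any of these gates under the main settings. For C over IgG in dendritic-like cells, Ly6e was at 1.315. That ratio was past the fold with marker minimums 2 times higher (1.60) and with a mean over cells (1.53).

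In CD8 T-like cells, Ly6k had 35 UMIs in Ac, 17 in C, 27 in aC+C and 174 in IgG, or 2.22, 1.48, 1.82 and 8.73 CPM. The Ac level was 0.255 times that of IgG (interval 0.172 to 0.368), the C level 0.169 times (0.0963 to 0.279) and the aC+C level 0.208 times (0.134 to 0.314). All 3 treated libraries lay below IgG, as the choice of the gene required, and their intervals overlapped; over all genes 6.43%, 1.4% and 10.3% were at least 1.5-fold lower in Ac, C and aC+C. The share of cells with a UMI differed likewise: 1.97% in Ac (23 of 1168), 1.92% in C (13 of 679), 1.82% in aC+C (18 of 989) and 11.5% in IgG (126 of 1095, interval 9.68% to 13.6%). Among NK-like cells, at a similar depth, it was 0% in the treated libraries and 0.198% in IgG. No cell of any library held more than 6 Ly6k UMIs, and the 5 cells with the most held 10.3% of the UMIs in IgG. Thinned to 1000 UMIs per cell, the share in IgG was 1.10% (interval 0.57% to 1.91%). The treated shares were 0.257% in Ac (0.053% to 0.749%), 0.295% in C (0.036% to 1.06%) and 0.404% in aC+C (0.11% to 1.03%). At that depth each treated interval overlapped that of IgG.

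Outside the CD8 T-like gate the Ly6k counts were too low to read a ratio. CD4 T-like cells held 10 UMIs in Ac, 9 in C, 4 in aC+C and 4 in IgG, and monocyte-like cells 0, 0, 0 and 4. Background barcodes held 7, 4, 6 and 11 Ly6k UMIs in Ac, C, aC+C and IgG, or 2.30, 1.22, 2.23 and 3.58 CPM. The CD8 T-like level was thus close to that of the background barcodes in the treated libraries and above it in IgG. With 5% of background subtracted, the ratios to IgG were 0.246, 0.166 and 0.199 for Ac, C and aC+C. In IgG, CD8 T-like cells with Ly6k were deeper than those without, with medians of 18620 and 13209 UMIs. Among genes that were higher in these cells, chosen after their values were seen, was the granzyme gene Gzmf, with 1552 CPM in cells with Ly6k and 838 CPM in cells without. Genes of other cell types were higher there too: the macrophage genes C1qb (55.7 and 18.2 CPM) and C1qa (52.5 and 21.0 CPM) and the dendritic cell gene Ccl17 (89.0 and 35.6 CPM), and their part was not tested.

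Markers listed for other cell types also differed between the CD8 T-like cells of the libraries. The 4 migratory dendritic markers, all with UMIs in each library, summed to 93.1 CPM in Ac, 257 in C, 64.1 in aC+C and 292 in IgG. Of these sums 63.8, 128.5, 51.2 and 142.2 CPM were Ccr7, which is also on the naive and central memory T cell list. The 7 fibroblast markers, of which Pdgfrb was at 0 in Ac, summed to 5.40, 127, 9.77 and 158 CPM. These sums separate Ac and aC+C from C and IgG, which is not the order of Ly6k; their part in the Ly6k values was not tested.

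**Figure D3:**
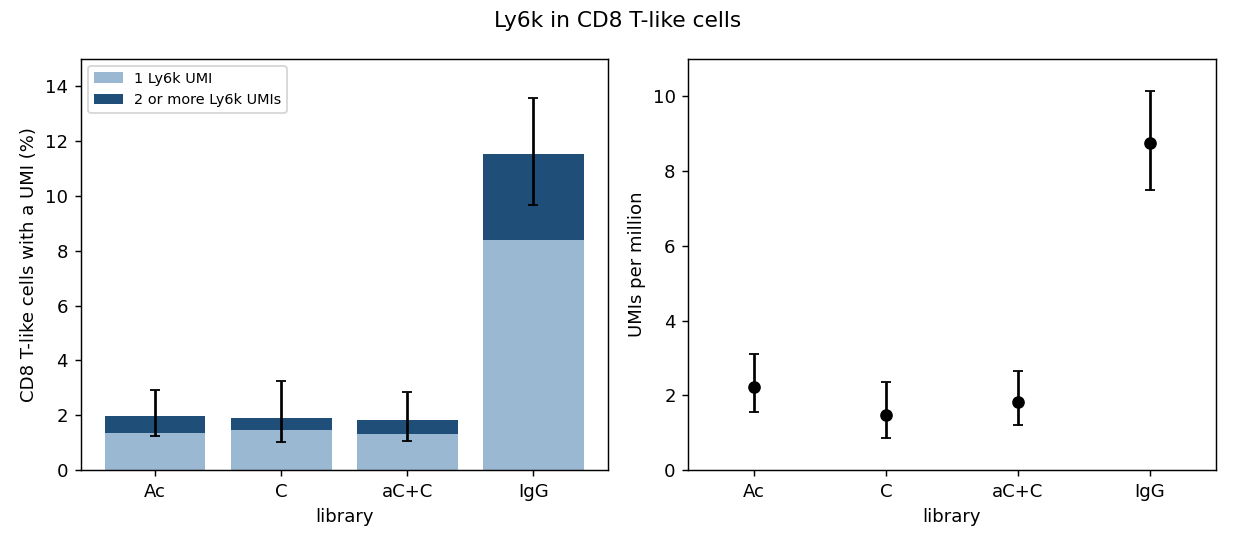
Ly6k in CD8 T-like cells of the 4 libraries. The left panel gives the percent of cells with 1 UMI and with 2 or more, the right panel CPM; bars are exact 95% intervals for counting error. IgG stands at 11.5% of cells and 8.73 CPM, and the 3 treated libraries lie between 1.82% and 1.97% of cells.

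Ly6c2 lay on both sides of IgG, depending on the gate. In CD8 T-like cells its level was 2.01 times that of IgG in Ac (interval 1.96 to 2.06), 0.846 times for C (0.818 to 0.875) and 1.34 times for aC+C (1.30 to 1.38). The share of cells without a UMI was similar, at 27.7% in Ac, 32.0% in C, 29.5% in aC+C and 32.2% in IgG. The median cell had 610 CPM in Ac, 190 in C, 337 in aC+C and 217 in IgG, so the higher Ac sum did not rest on a few cells. In macrophage-like cells Ly6c2 was lower than IgG in all treated libraries, with 191 CPM in Ac, 331 in C, 325 in aC+C and 573 in IgG, ratios of 0.334, 0.578 and 0.567. There 68.8% of cells in Ac, 59.5% in C, 61.6% in aC+C and 49.5% in IgG had no UMI. The 6 monocyte markers, all with UMIs, summed to 1007 CPM in Ac, 926 in C, 737 in aC+C and 1357 in IgG within the macrophage-like gate. These sums were highest in IgG, as Ly6c2 was, but among treated libraries highest in Ac, where Ly6c2 was lowest; their part was not tested. In NK-like cells Ly6c2 relative to IgG was 0.641 in aC+C and within the fold in Ac and C; the aC+C ratio was 0.833 with a mean over cells and 0.862 with marker minimums 2 times higher, within the fold. In CD4 T-like cells, where the 5 cells with the most UMIs held 54.8% to 60.8% of them, the Ac ratio was 0.528, the C ratio 1.87 and the aC+C ratio 1.72. In dendritic-like cells the Ac ratio was 1.98 and the aC+C ratio 0.577. With marker minimums 2 times higher, the CD4 T-like ratio of C turned to 0.749 and that of Ac was 0.264, and the dendritic-like ratio of Ac turned to 0.618. In monocyte-like cells all 3 ratios were within the fold, from 0.788 to 1.08.

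Ly6a was past the fold in few gates. It was higher in aC+C in NK-like cells, with 412 CPM against 248 CPM in IgG, a ratio of 1.66 (interval 1.55 to 1.77) that was 1.22 with a mean over cells and 1.34 with marker minimums 2 times higher, within the fold. It was higher in C in dendritic-like cells, with 677 against 367 CPM (ratio 1.84, interval 1.65 to 2.07). Below that fold, the aC+C library had more Ly6a than IgG in CD8 T-like, CD4 T-like, monocyte-like, macrophage-like and tumor-like cells. Those ratios were 1.44, 1.46, 1.35, 1.12 and 1.34. The aC+C library had less in dendritic-like and fibroblast-like cells, with 0.925 and 0.814. Fibroblast-like cells numbered only 49 in Ac and 42 in IgG. Their Ly6a ratio was past the fold in Ac, at 0.593 (interval 0.542 to 0.650), and in C, at 0.608 (0.560 to 0.661). Set against the single treatments, aC+C had a Ly6a ratio of 1.31 over Ac and 1.69 over C in CD8 T-like cells, and of 2.00 over Ac and 1.67 over C in tumor-like cells. In dendritic-like cells these were 0.939 and 0.502. The 20 interferon-stimulated genes summed, in tumor-like cells, to 3194 CPM in Ac, 3367 in C, 5632 in aC+C and 4026 in IgG, and in CD8 T-like cells to 4050, 3560, 3625 and 4049 CPM. The order of the libraries for that sum was that of Ly6a in tumor-like cells and not in CD8 T-like cells.

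Ly6c1 ratios rested on few cells in the immune gates. In CD8 T-like cells it was past the fold and lower in all treated libraries, with ratios of 0.0713 for Ac, 0.195 for C and 0.255 for aC+C; without the 1 cell with the most UMIs in each library, which in IgG held 79.6% of them, the ratios were 0.306, 0.776 and 0.602. In NK-like cells it had 56 UMIs in Ac, 84 in C, 190 in aC+C and 15 in IgG, in 8, 8, 16 and 3 cells. The ratio of aC+C over IgG was 23.9 (interval 14.1 to 43.5), 4.82 with marker minimums 2 times higher and 93.0 without the 1 cell with the most UMIs in each library. The 6 tumor markers, all with UMIs in each library, summed to 198 CPM in Ac, 115 in C, 693 in aC+C and 113 in IgG in the NK-like gate, and the 7 fibroblast markers to 235, 217, 390 and 74.2 CPM, with Lum at 0 in Ac. Both sums were highest in aC+C, as Ly6c1 was, but higher in Ac than in C, where Ly6c1 had 8.39 and 11.1 CPM, and the tumor sum was about equal in C and IgG; their part was not tested. In tumor-like cells, where most of its UMIs were, the ratios were 0.718, 0.825 and 1.42 for Ac, C and aC+C. Fibroblast-like cells of Ac and IgG numbered under 50, and Ly6c1 ratios there were 0.379, 0.351 and 0.506 in Ac, C and aC+C.

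Ly6i was past the fold in 1 ratio, C over IgG in macrophage-like cells, at 0.597 (interval 0.503 to 0.710). Its other macrophage-like ratios were 0.689 in Ac and 1.07 in aC+C, and its monocyte-like ratios were 1.26, 0.839 and 1.31 in Ac, C and aC+C. For Ly6c2 in tumor-like cells the ratio was 25.8 in C (interval 8.64 to 127) and 9.21 in aC+C (3.08 to 45.2), on 136 and 131 UMIs against 3 UMIs in IgG. The 6 myeloid markers, all with UMIs in each library, summed to 119 CPM in Ac, 236 in C, 174 in aC+C and 64.7 in IgG in the tumor-like gate; their part was not tested.

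**Figure D4:**
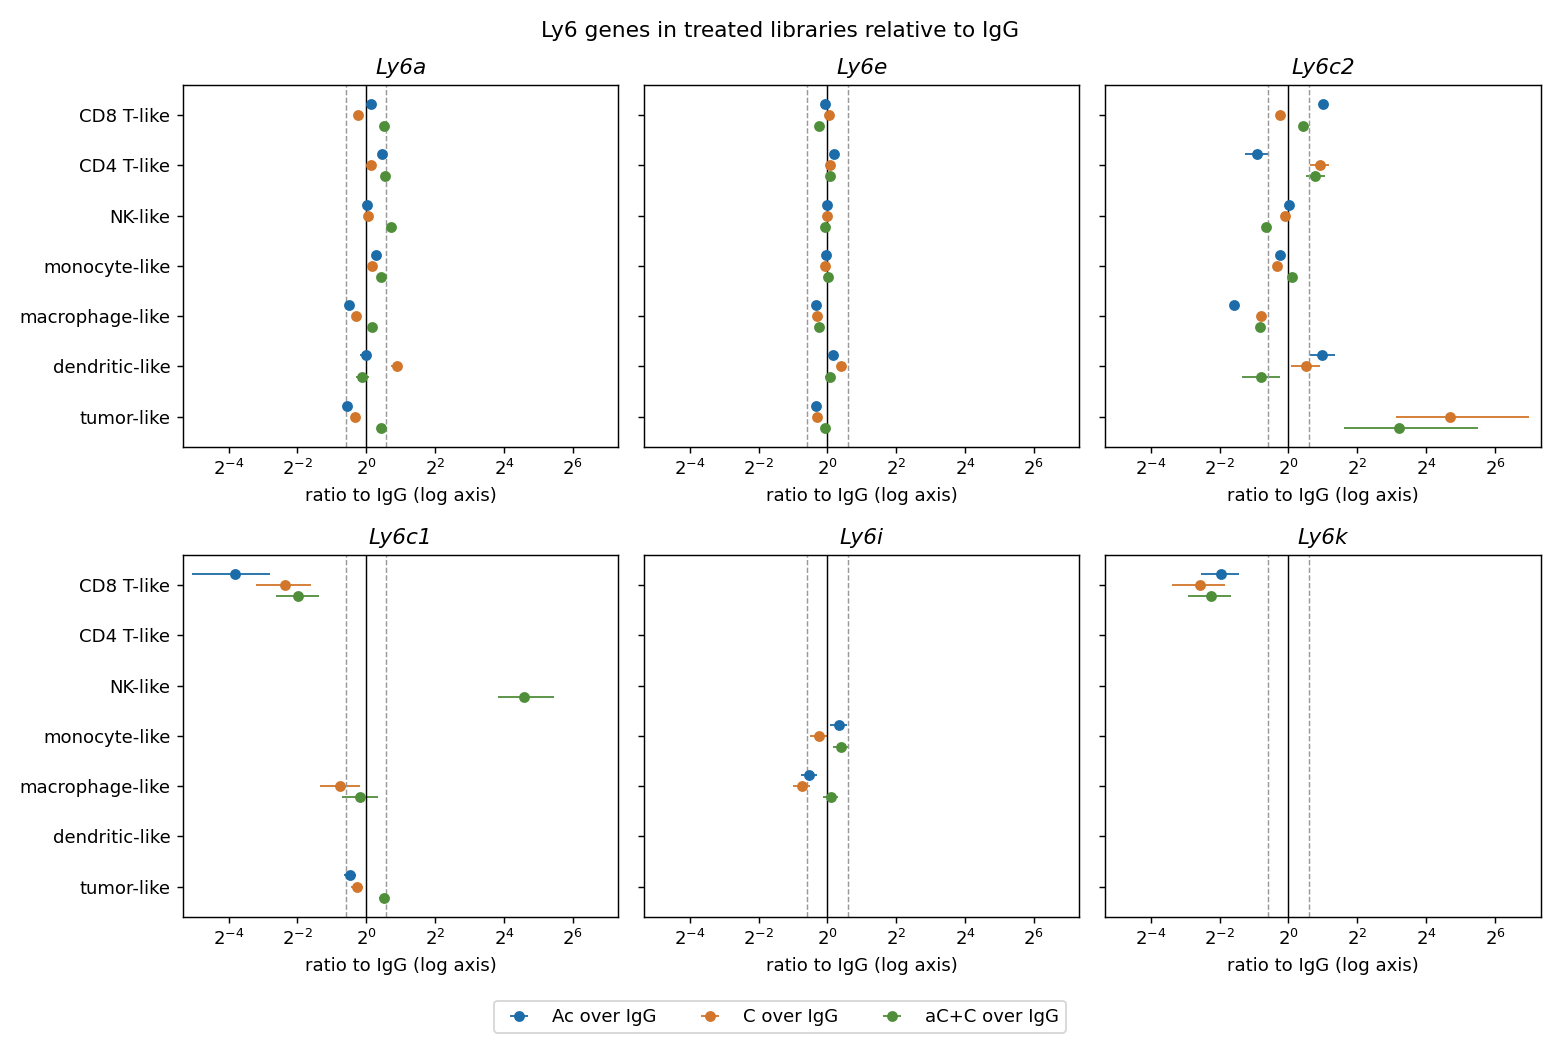
Ratio of each treated library to IgG, on a logarithmic axis, for each Ly6 gene and gate with at least 100 UMIs in both libraries together; bars are exact 95% counting intervals and dashed lines mark 1.5-fold. Ly6e stays between the dashed lines in every gate, Ly6k lies below them in CD8 T-like cells, and Ly6c2 lies on both sides depending on the gate.

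Within a gate and library, cells were ordered by the summed level of 20 interferon-stimulated genes, a list without any Ly6 gene, and the 25% of cells with the highest and the 25% with the lowest sums were compared as a description. Ly6a was higher in the top 25% in all 6 gates looked at and in each library, 3.09-fold to 4.98-fold in CD8 T-like cells, 3.27-fold to 5.08-fold in CD4 T-like cells, 4.04-fold to 6.89-fold in NK-like cells, 6.28-fold to 17.4-fold in monocyte-like cells, 6.00-fold to 9.64-fold in macrophage-like cells and 2.23-fold to 3.97-fold in tumor-like cells. Ly6e went the same way by less, 1.45-fold to 2.96-fold over those gates and libraries. Ly6c2 was 2.47-fold to 4.12-fold higher in the top 25% of CD8 T-like cells and 4.40-fold to 11.2-fold higher in monocyte-like cells. In macrophage-like cells its ratio was 9.20 to 34.7 and in NK-like cells 1.85 to 3.83. It lay on both sides of 1 in CD4 T-like cells, from 0.272 to 3.34, and in tumor-like cells, from 0.677 to 2.67. Ly6k showed no such order in CD8 T-like cells, where the ratio ranged between 0.320 and 4.15 over libraries. These groups are ranges and not cell types: between 65 and 89 CD8 T-like cells of a library lay within 10% of the upper limit. The top 25% of CD8 T-like cells were shallower, with medians of 8203 to 10082 UMIs, than the bottom 25%, with 13846 to 15421 UMIs, and the part of depth was not tested.

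**Figure D5:**
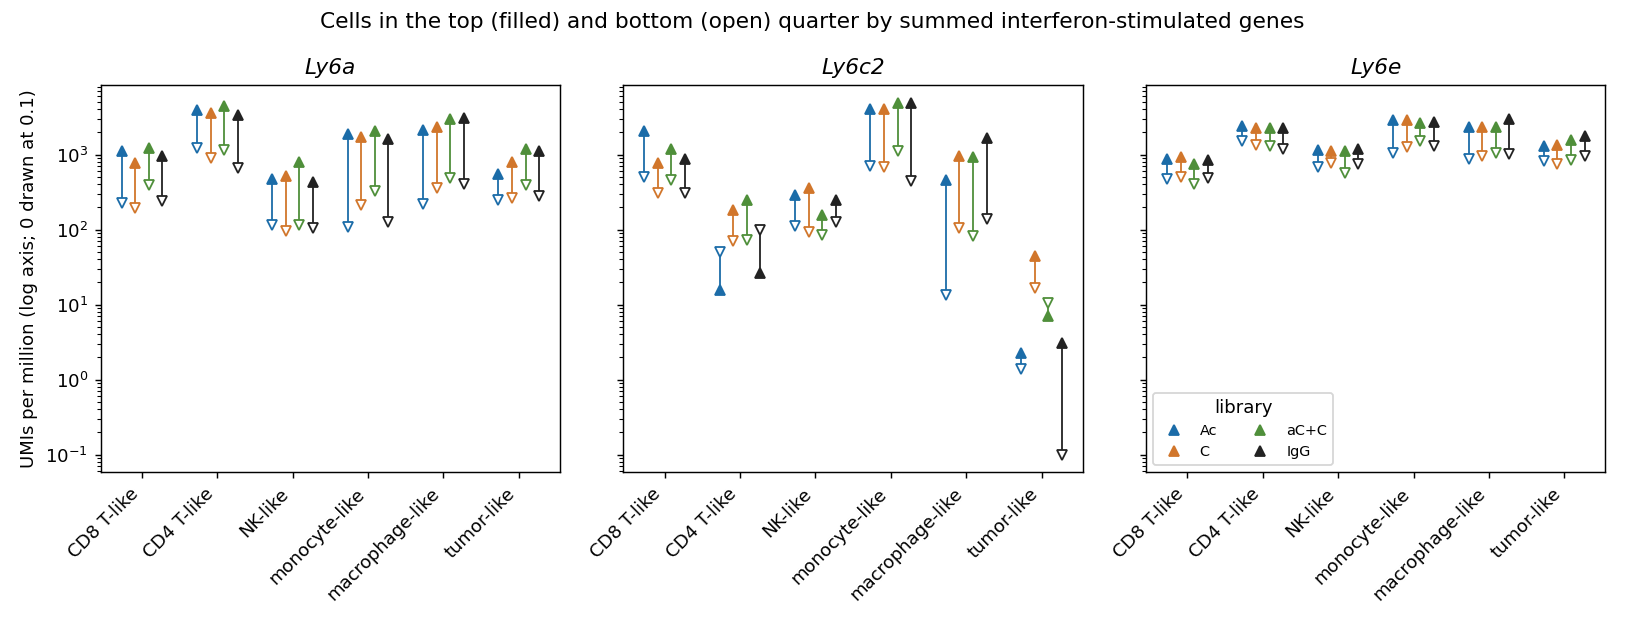
Level of Ly6a, Ly6c2 and Ly6e, in CPM on a logarithmic axis, in the 25% of cells with the highest (filled) and lowest (open) summed interferon-stimulated genes, by gate and library. Lines join the values of 1 library; for Ly6a and Ly6e the filled points lie above the open points in every gate.

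Ordered by 11 cell cycle genes instead, Ly6c2 was lower in the top 25% of CD8 T-like cells in each library, with ratios of 0.252 to 0.540, and of macrophage-like cells, with 0.188 to 0.313. Here the top CD8 T-like cells were deeper, with medians of 20396 to 23376 UMIs, than the bottom ones, with 7913 to 9263 UMIs. Ly6a did not show 1 direction over gates: in NK-like cells its ratio was 1.25 to 2.34 and in CD4 T-like cells 0.679 to 0.771. With 7 naive and central memory T cell genes the Ly6c2 ratio in CD8 T-like cells was 0.747 to 1.28 and that of Ly6a 0.860 to 1.24, on both sides of 1. Ly6e was higher by 1.14-fold to 1.49-fold in the top 25% of CD8 T-like cells by those genes. Many cells lay near the lower limit in some of these orders, by the margin used for the interferon-stimulated genes. Over libraries, these were 94 to 155 CD4 T-like, 83 to 182 NK-like and 63 to 176 macrophage-like cells by cell cycle genes. By naive and central memory genes they were 177 to 448 CD8 T-like cells. Which of them fell in the bottom 25% was thus partly arbitrary. CD8 T-like cells near that limit by cell cycle genes were fewer, 24 to 39.

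The genes whose levels were most like each member's over 28 sums (7 gates by 4 libraries), by Pearson correlation of log2(CPM + 1) among 11890 genes, are given as a description; the sums share libraries and depth. For Ly6a they were Irgm2 (r = 0.862), an interferon-inducible GTPase, Maf, Zfp281, Parp9 and Il10. Ly6c1 was most like Chchd4 (r = 0.918), Mpzl1, Mfap5, Hoxa11 and Gpc4. Ly6c2 was most like Fam26f (r = 0.907), Litaf, Chd7, Ccl3 and Sorl1. Ly6e was most like Tmem59 (r = 0.918), N4bp1, Derl1, Tmbim6 and Snx2, and Ly6i like Tlr2 (r = 0.978), a receptor for bacterial lipoproteins, Msrb1, Mcl1 and Trem1. For Ly6k they were Gxylt1 (r = 0.858), Pttg1, Akap12 and Gm8369. The Ly6k values rest on few counts: outside the T-like gates no sum held more than 4 UMIs. The CD8 T-like sum of IgG, on which the gene was chosen, held 174. Between members the highest value was 0.684 for Ly6a with Ly6e and the lowest -0.633 for Ly6c1 with Ly6c2, the near copies.

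Of 37 other genes of the Ly6 and uPAR family listed, 31 were in the files, 7 of these had 0 UMIs, and 7 reached 100 UMIs over all barcodes kept. Plaur, the urokinase receptor, was read at 560 CPM in monocyte-like and 289 CPM in macrophage-like cells over the 4 libraries. Cd177 was read at 49.4 CPM in monocyte-like cells, Ly6d, a marker of lymphoid progenitors and B cells, at 1487 CPM in B-like cells, and Ly6g, a neutrophil antigen, had 41 UMIs in all. In CD8 T-like cells, 2 of these genes reached 100 UMIs in both libraries together. Relative to IgG, Ly6g5b was 1.85 (interval 1.49 to 2.31) and Plaur 0.490 (0.368 to 0.647) in Ac, neither was past the fold in C, and Plaur was 0.614 in aC+C.

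Genes that make or remodel the GPI anchor, on which Ly6 proteins depend, were near the median of all genes. Of 12 read in CD8 T-like cells, 1 was past the fold in Ac (Pgap1, at 1.56) and 0 in C and aC+C, with median ratios of 0.942, 0.974 and 0.845 beside 0.960, 1.00 and 0.916 over all genes. Over all genes read in CD8 T-like cells, 7.44% were past the fold in Ac, 3.56% in C, and 11.6% for aC+C. Of the 20 interferon-stimulated genes, 3 were lower in Ac, 1 higher in C and 4 lower in aC+C; Oasl2 had ratios of 0.394, 1.62 and 0.336. Gbp2 and Cxcl10 were lower in Ac (0.637 and 0.621) and in aC+C (0.538 and 0.599), and Rsad2 in aC+C (0.626). The list's median ratios were 1.05, 0.873 and 0.859. Of the 7 naive and central memory genes, 4 were lower in Ac, where the Ly6c2 ratio was highest, among them Ccr7 at 0.448, Tcf7 at 0.582 and Klf2 at 0.651. The C library had Klf2 at 1.57 and Ccr7 at 0.903, and aC+C had Ccr7 at 0.360. Ccr7 is also on the migratory dendritic list. The sum of that list in CD8 T-like cells was 93.1 CPM in Ac, 257 in C, 64.1 in aC+C and 292 in IgG. The order of libraries was the same, but Ccr7 itself gave 63.8, 128.5, 51.2 and 142.2 CPM of these sums. That order is thus partly built in and cannot tell of dendritic RNA, whose part was not tested. Of the 11 cell cycle genes, 2 were past the fold, in aC+C, Hmmr at 1.71 and Ccnb1 at 1.68. Median ratios of that list were 1.12, 1.06 and 1.20 in Ac, C and aC+C.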

How the data were processed

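Droplet-based single-cell RNA was measured in 4 mouse libraries, 1 per group. The submitters' processing notes list Cell Ranger 2.1.1 and mm10, and the matrix headers list software version 3.0.2. The sources used here give no counting strand or annotation release. Per the file headers and values, the authors deposited unfiltered, unnormalized matrices of whole UMI counts; the deposited barcode and gene lists (other) name their columns and rows. Libraries held 65973242 UMIs (Ac), 75665201 (C), 75067320 (aC+C) and 61519049 (IgG), of which 3.58% to 4.99% lay in barcodes of 1 to 50 UMIs.

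Cells were gated by summed markers per 10000 UMIs, counts were summed per gate and library, and levels are per 1000000 UMIs. Shares have Clopper-Pearson intervals, levels exact Poisson intervals and ratios exact conditional binomial intervals, all at 95%. Gate differences were fitted with edgeR 4.0.16 (TMM, filterByExpr), with DESeq2 1.42.0 as an alternative, and the fit was tested on simulated data. Doublets marked with Scrublet in scanpy 1.11.5 (130, 142, 133 and 94 in Ac, C, aC+C and IgG) were kept except in 1 alternative. Other alternatives changed UMI, mitochondrial and marker limits, background, averaging, the low count filter and libraries. The members and lists were chosen with earlier results of these data known. Genes named were all 6 members, the 5 genes most like each, and list genes past 1.5-fold in CD8 T-like cells, at most 4 a list; genes named otherwise were chosen after their values were seen. Some genes that meet this rule are not reported here.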

Additional observations from a re-analysis of the deposited data

Results flagged for a closer look

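The treatments' ratios to IgG lay on opposite sides of 1 between gates for some members; with 1 library per group none of these differences was tested. Ly6c1 in aC+C was 23.9 times IgG in NK-like cells and 0.255 times IgG in CD8 T-like cells, a 93.6-fold difference between gates, with 1 CD8 T-like cell of IgG holding 113 of its 142 UMIs. With marker minimums 2 times higher these ratios were 4.82 and 4.30, on the same side of 1. Ly6c2 in Ac was 2.01 times IgG in CD8 T-like cells and 0.334 times IgG in macrophage-like cells, a 6.03-fold difference. Ly6c2 was 25.8 times IgG in C and 9.21 times IgG in aC+C in tumor-like cells, and 0.578 and 0.567 times IgG in macrophage-like cells, differences of 44.6-fold and 16.2-fold; the tumor-like IgG value rests on 3 UMIs.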

How the results depend on the processing

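Of 669 member ratios recomputed under other settings, 564 stayed within their counting interval and 99 moved outside it. Another 6, all past 1.5-fold at first, turned direction. Some of the 99 also crossed 1 from within the fold. With marker minimums 2 times higher, Ly6i in macrophage-like cells of aC+C went from 1.07 to 0.566. Ly6c1 there went from 0.872 to 1.465, and Ly6c2 in monocyte-like cells of C from 0.788 to 1.025. With marker minimums 2 times higher, Ly6c1 in CD8 T-like cells turned to 2.22 in C and 4.30 in aC+C, Ly6c1 in macrophage-like cells of C to 1.495 (1.91 with doublets removed), Ly6c2 in CD4 T-like cells of C to 0.749, and Ly6c2 in dendritic-like cells of Ac to 0.618. The 9 member ratios past 1.5-fold in aC+C became 3 with marker minimums 2 times higher and 5 with a mean over cells, and the Ly6k ratio of Ac in CD8 T-like cells was 0.167 with a mean over cells. Under all settings the 3 Ly6k ratios stayed under 1. Leaving out the 1 cell with the most UMIs was added after seeing the data for members other than Ly6k. A ratio against a background-corrected level of 0 for Ly6c2 in tumor-like cells gave no value.

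Members called between gates were also counted leaving out each library in turn, with Ly6k and Ly6c2 counted wherever fitted. They ranged from 3 to 5 for monocyte-like over macrophage-like, 4 to 5 for NK-like over CD8 T-like and 3 to 4 for CD8 T-like over CD4 T-like cells. For fibroblast-like over tumor-like cells they ranged from 1 (without C) to 3. With all libraries, 35.8%, 33.1%, 43% and 60.5% of all genes passed in the same order. The counts can hold Ly6k, and Ly6c2 in fibroblast-like over tumor-like cells, for which no test is given above. Nothing is therefore read from these counts. Ly6c1 for monocyte-like over macrophage-like cells did not pass, but did in opposite directions at 0.92 with doublets removed (adjusted p = 0.0384 by edgeR) and at -1.33 without C (adjusted p = 0.0383 by edgeR). Among other log2 changes, Ly6k for CD8 T-like over CD4 T-like cells turned to -0.057 with DESeq2 and -0.30 with marker minimums 2 times higher, and Ly6c1 for fibroblast-like over tumor-like cells to 0.48 with marker minimums 2 times higher. Leaving out each library, these ran from -0.80 (without IgG) to 0.63 for Ly6k, from -0.99 to 0.64 (without aC+C) for Ly6i in CD8 T-like over CD4 T-like cells, and from -0.43 to 0.095 (without aC+C) for Ly6c1 in fibroblast-like over tumor-like cells. The causes were not tested. No paired analysis was possible because each group has 1 library; library is already a block in the tests between gates. Depth limits Ly6k, Ly6i and Ly6c1 outside the gates where they are high.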
